A study of Mus musculus with 9 samples.

Results

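The acyl-CoA thioesterases are enzymes that split fatty acyl-CoA into a free fatty acid and coenzyme A. The family was taken as 10 named genes (Acot1, Acot2, Acot3, Acot4, Acot7, Acot8, Acot9, Acot11, Acot12 and Acot13). They were listed by name, but with earlier results of these data known. Of these, 7 had a row among the 17753 genes of the expression matrix, 1 row each, and Acot1, Acot2 and Acot4 are not analysed here. RNA sequencing compared brown fat, white fat and soleus, a calf muscle rich in slow fibres, with 3 libraries for each tissue. All libraries came from wild-type C57BL/6J males aged 3 months, so the tissues differed in nothing else that the labels record. The depot from which the white fat came is not given in the sources used here. Per the labels 3 mice were used, but libraries are not tied to animals, so each p-value reflects library-to-library spread alone.

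Acyl-CoA is the activated form in which a fatty acid is oxidised, elongated or built into lipid, and synthetases make it at the cost of ATP. Thioesterases run the opposite step, and different family members do so in the cytosol, in mitochondria and in peroxisomes. The family comprises 2 unrelated folds: type I enzymes (Acot1 to Acot4 here), which are alpha/beta hydrolases, and type II enzymes (Acot7 to Acot13 here), which carry hot-dog domains. In brown fat, where fatty acid oxidation fuels heat production by the uncoupling protein Ucp1, Acot11 is known as brown fat inducible thioesterase, and mice without it spend more energy.

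Values are FPKM, fragment counts divided by transcript length and by the library's mapped total, which allows levels to be compared between genes. A gene was tested if it reached 1 FPKM in at least 3 libraries, and 9913 genes did. Of the 7 members with a row, 5 were tested (Acot7, Acot8, Acot9, Acot11 and Acot13), and Acot3 and Acot12 were under that limit. Fold changes are differences on the log2(FPKM + 1) scale, which understates the change of low genes, and a change was called at an adjusted p under 0.05. The sum of FPKM ran from 213936 to 352502 per library. Read totals are not known; judged from steps among low FPKM, white fat replicate 3 was the deepest library, at 3.56 times the shallowest, white fat replicate 2. Tissue markers matched the labels: Ucp1 was at 3386 to 4108 FPKM in brown fat, 1.45 to 35.7 FPKM in white fat and 0.617 to 4.14 FPKM in soleus. Summed over 5 slow-fibre genes, soleus had 22039 to 26242 FPKM, against at most 65.7 FPKM in any fat library. Markers of other cell types differed too. Summed over 9 macrophage markers, brown fat had 46.8 to 54.6 FPKM, white fat 509 to 622 FPKM and soleus 35.3 to 49.4 FPKM. Over 6 mesothelial markers the sums were 1.20 to 1.42 FPKM in brown fat, 68.7 to 102 FPKM in white fat and 0.251 to 2.13 FPKM in soleus, with Wt1 and Bnc1 listed at 0 in brown fat. White fat thus stood highest in both. Over 8 endothelial markers they were 112 to 120 FPKM in brown fat, 57.3 to 83.0 FPKM in white fat and 77.3 to 84.4 FPKM in soleus. The part of these cells in the differences of members was not tested. In whole tissue, fewer cells of a type and less RNA per cell cannot be told apart.

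Of the summed FPKM of the 7 members with a row, Acot13 and Acot11 made up most in brown fat. Acot13 made up most in soleus, and no member did so in white fat. Acot1, Acot2 and Acot4, which had no row, are not in this sum. Summed over the 7 members, the level was 347 ± 19.0 FPKM in brown fat, 67.3 ± 5.28 FPKM in white fat and 313 ± 41.6 FPKM in soleus (SD, n = 3 each). Brown fat and soleus overlapped, with sums of 324.9 to 359.1 and 280.2 to 359.7 FPKM, and every white fat library was lower than all of these. Acot13 held 60.0 ± 1.74% of the sum in brown fat, 42.6 ± 2.24% of that in white fat and 87.7 ± 1.04% in soleus. Acot11 held 26.0 ± 0.450% in brown fat, but 0.836 ± 0.905% in white fat and 1.44 ± 0.362% in soleus. In white fat the next largest share belonged to Acot9, at 30.7 ± 2.92%, against 7.36 ± 0.330% in brown fat and 2.91 ± 0.143% in soleus.

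Within brown fat the order by mean level was Acot13, Acot11, Acot9, Acot7, Acot8, and no neighbours in that order overlapped between libraries. In white fat the order was Acot13, Acot9, Acot7, Acot8, Acot11, again with no overlap. In soleus it was Acot13, Acot7, Acot9, Acot8, Acot11. There the last pair overlapped, with Acot8 at 4.78 to 5.22 FPKM and Acot11 at 3.83 to 4.998 FPKM. Acot12 and Acot3 came below the other members in every library.

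**Figure D1:**
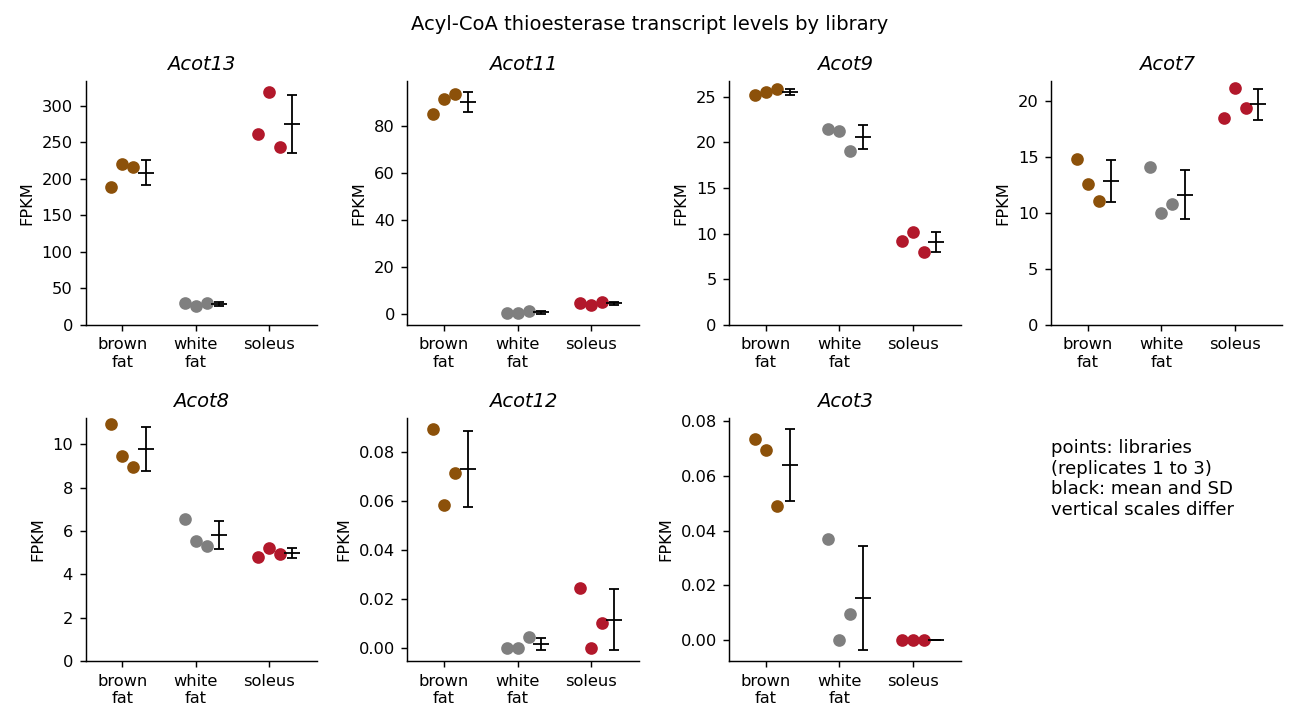
FPKM of each of the 7 members in brown fat, white fat and soleus; points are libraries and bars mark the mean ± SD of 3. Acot11 separated brown fat most widely from both other tissues, and Acot13 separated white fat most widely from soleus. Brown fat and soleus lay close in Acot13. Acot7 was the tested member whose brown fat and white fat libraries overlapped.

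Between brown fat and white fat, 4 of the 5 tested members were called higher in brown fat and 0 lower, in limma with 0 lower also at an unadjusted p under 0.05. Over all tested genes, 38% were called higher in this comparison and 34.8% lower, 72.8% in either direction, with a median log2 fold change of 0.03. Between brown fat and soleus, 3 members were higher in brown fat (Acot8, Acot9 and Acot11) and 2 lower (Acot7 and Acot13), where 52.9% of all tested genes were called higher, 25.6% lower and 78.5% in either direction, around a median of 0.29. Between white fat and soleus, 1 member was higher in white fat (Acot9) and 3 lower (Acot7, Acot11 and Acot13), where 54.5% of all tested genes were called higher, 29.7% lower and 84.2% in either direction, around a median of 0.35. Most genes differed between these tissues, so the number of members called in either direction is near the background, and their sizes are given for description.

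**Figure D2:**
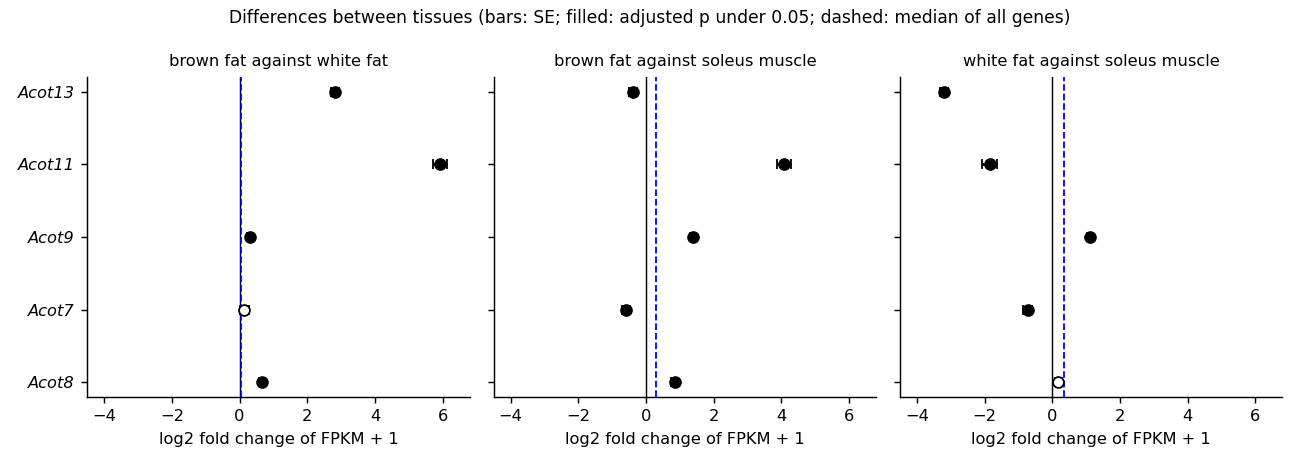
Log2 fold change on log2(FPKM + 1), with its standard error, of the 5 tested members in each pair of tissues; filled points were called, and the dashed line is the median of all tested genes. Acot11 lay at 5.93 and 4.08 for brown fat against white fat and soleus, the largest of the 5 in both.

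Acot11, which joins hot-dog domains to a lipid-binding START domain, was the member with the widest gap between brown fat and both other tissues. It had 85.4, 91.6 and 93.7 FPKM in brown fat, 0.366, 0.0914 and 1.24 FPKM in white fat, and 4.43, 3.83 and 4.998 FPKM in soleus. Brown fat lay far above soleus, and soleus lay above white fat, with no overlap. Among the 9913 tested genes its mean level ranked 517 in brown fat, against 9368 in white fat and 5174 in soleus. The log2 fold change of brown fat against white fat was 5.93 (SE 0.21; limma, Benjamini-Hochberg-adjusted p = 2.3e-09), the tenth largest of all tested genes. This value moved with the constant added before the logarithm, from 7.52 at 0.1 FPKM to 4.10 at 5 FPKM, and was 6.22 without white fat replicate 3. Against soleus it was 4.08 (SE 0.21; limma, Benjamini-Hochberg-adjusted p = 1.5e-08). White fat was lower than soleus by a log2 fold change of -1.85 (SE 0.21; limma, Benjamini-Hochberg-adjusted p = 8.28e-06), which ran from -3.19 to -0.76 over the same constants and was -2.14 without white fat replicate 3.

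The white fat libraries differed among themselves in Acot11, and in the same order they differed in Ucp1 and Cidea. The sum over all 10 brown adipocyte markers had this order too, at 93.2, 54.9 and 230.1 FPKM in replicates 1, 2 and 3. Not every single marker did: Dio2 was at 0.193, 0.417 and 0.606 FPKM in those replicates. White fat replicate 3, the highest in Acot11, had 35.7 FPKM of Ucp1 and 26.5 FPKM of Cidea, a lipid droplet protein of brown adipocytes. Replicate 1 had 7.81 FPKM of Ucp1 and 7.20 FPKM of Cidea, and replicate 2, the lowest in Acot11, had 1.45 and 3.53 FPKM. Summed over all 10 brown adipocyte markers, brown fat had 15020 to 16329 FPKM and white fat 54.9 to 230.1 FPKM, with Zic1 at 0 in white fat replicates 1 and 2 and Elovl3 at 0 in replicate 2. The part of brown adipocytes in the white fat Acot11 level was not tested. The ratio of Acot11 to Ucp1, chosen after the values were seen, was 0.0223 to 0.0263 in brown fat and 0.0347 to 0.0630 in white fat. In soleus it was 1.07, 2.70 and 8.10 in replicates 1, 2 and 3, since soleus Acot11 was highest in replicate 3, where Ucp1 was lowest at 0.617 FPKM. The ratio of Acot11 to Cidea, also chosen afterwards, was 0.0389 to 0.0455 in brown fat, 0.0259 to 0.0507 in white fat and 0.504 to 0.800 in soleus. The brown adipocyte sum in soleus was 7485 to 9528 FPKM, of which Cox8b and Cox7a1, respiratory chain subunits that muscle also makes, gave nearly all (4243 and 3244 FPKM in replicate 1).

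**Figure D3:**
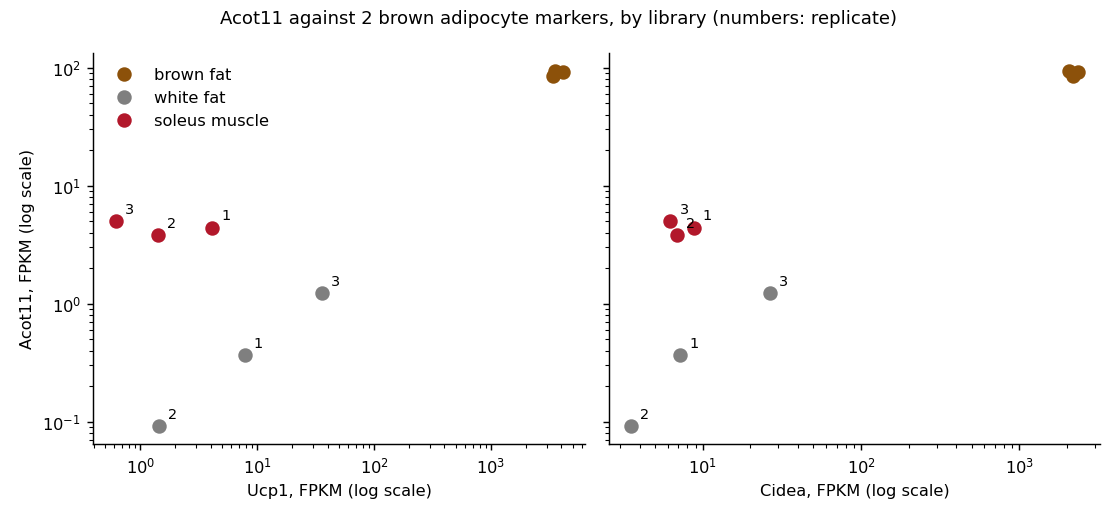
Acot11 against 2 brown adipocyte markers, Ucp1 and Cidea, in FPKM on logarithmic axes, 1 point per library, with replicate numbers beside the white fat and soleus points. White fat points climb with both markers, and soleus points stand above them at Acot11 levels of 3.83 to 4.998 FPKM.

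An uncertainty of the Acot11 value is its antisense neighbour. On the GRCm38 annotation, exons of Acot11 overlap those of Fam151a on the other strand of chromosome 4, and 19.01% of the 50-base stretches of the Acot11 transcripts also lie in Fam151a. The library kit does not mark strand, so reads from the shared stretch cannot be told apart. Fam151a was itself at 13.8 ± 0.592 FPKM in brown fat, 0.593 ± 0.173 FPKM in white fat and 0.983 ± 0.461 FPKM in soleus (SD, n = 3 each). In brown fat and soleus it lay below Acot11, and in white fat the levels overlapped.

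Acot11 has 2 annotated starts, and their promoters are shown because this gene had the widest difference between tissues. They are taken from RefSeq on GRCm38.p6, run from 250 bases before to 50 bases after each start, are read 5′ to 3′ on the minus strand, and lie at chr4:106804958-106805257 and chr4:106799782-106800081.

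Acot11 upstream start: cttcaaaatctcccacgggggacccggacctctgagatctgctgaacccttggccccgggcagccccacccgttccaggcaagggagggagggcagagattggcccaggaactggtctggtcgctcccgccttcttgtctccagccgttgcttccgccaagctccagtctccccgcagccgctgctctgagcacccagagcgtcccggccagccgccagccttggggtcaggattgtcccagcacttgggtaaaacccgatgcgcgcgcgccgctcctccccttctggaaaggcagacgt
Acot11 downstream start: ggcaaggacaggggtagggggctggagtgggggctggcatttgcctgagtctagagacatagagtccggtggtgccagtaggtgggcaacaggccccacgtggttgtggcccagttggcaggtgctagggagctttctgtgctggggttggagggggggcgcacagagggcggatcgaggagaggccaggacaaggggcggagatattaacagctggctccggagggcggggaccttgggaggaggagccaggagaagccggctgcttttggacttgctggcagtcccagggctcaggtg

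Neither window holds AGGTCA, the half-site bound by many nuclear receptors, on either strand, so no letters are in capitals. Among all 32851 promoters of this length, 16.26% hold it. Neither holds the PPAR-type direct repeat of that half-site with 1 base between (0.03957% of promoters), or TCAAGGTCA, an ERR-type site that contains the half-site (0.4231%). For the family, 9 members had 11 promoters in the table, and 4 of these hold AGGTCA: both of Acot3, and those of Acot4 and Acot12. The Acot3 windows overlap almost wholly and hold the same site, which is thus counted more than once. The motifs were chosen with the expression values known, and the absence of these letters says nothing about any factor.

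Acot13, a small mitochondria-associated enzyme for long-chain acyl-CoA, also known as Them2, was high in the 2 oxidative tissues. It had 188, 220 and 217 FPKM in brown fat, 30.4, 25.6 and 30.0 FPKM in white fat, and 261, 319 and 243 FPKM in soleus. All brown fat and soleus libraries were above all white fat libraries, and the lowest soleus library was above the highest brown fat library. Its rank among tested genes was 243 in brown fat, against 1381 in white fat and 177 in soleus. Brown fat was higher than white fat by a log2 fold change of 2.82 (SE 0.12; limma, Benjamini-Hochberg-adjusted p = 7.01e-09), a 7.26-fold ratio of mean FPKM. White fat was lower than soleus by a log2 fold change of -3.21 (SE 0.12; limma, Benjamini-Hochberg-adjusted p = 1.09e-09), with soleus 9.57-fold above white fat in mean FPKM. The difference between brown fat and soleus was small, with a log2 fold change of -0.39 (SE 0.12; limma, Benjamini-Hochberg-adjusted p = 0.0111). Brown fat replicate 2, which had the highest Acot13 of its tissue, also had the highest sum of 6 fast-fibre genes, 225.9 FPKM against 29.4 and 118.0 FPKM in replicates 1 and 3, and the soleus range was 27327 to 32707 FPKM. The part of muscle in the brown fat Acot13 level was not tested.

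The level of Acot11 relative to Acot13 was highest in brown fat, which follows from the levels given above and is no separate result. This ratio, which was not planned, was 0.417 to 0.453 in brown fat, 0.00357 to 0.0412 in white fat and 0.0120 to 0.0206 in soleus. The genes that followed each of the 2 most closely across the 9 libraries were found by Pearson correlation of log2(FPKM + 1), given as a description since all points share a 3-tissue pattern. For Acot13 they were Ndufb5 (r = 0.9987), Atp5pb (r = 0.9979) and Ndufs4 (r = 0.9978), which encode subunits of complex I and of ATP synthase. Ndufb5 averaged 413.8 FPKM in brown fat, 64.5 FPKM in white fat and 540.8 FPKM in soleus, the same order as Acot13. For Acot11 they were Gnao1 (r = 0.9963), a G protein alpha subunit, Chrnb2 (r = 0.9957), a nicotinic receptor subunit, and Clpx (r = 0.9956), the unfoldase of a mitochondrial protease. Their steps were smaller than that of Acot11: Clpx averaged 72.3 FPKM in brown fat, 24.7 FPKM in white fat and 35.2 FPKM in soleus, since correlation ignores the size of a step.

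Acot9, a mitochondrial enzyme for short and long acyl chains, was higher in both fats than in muscle. It had 25.1, 25.5 and 25.8 FPKM in brown fat, 21.5, 21.3 and 19.0 FPKM in white fat, and 9.17, 10.1 and 7.94 FPKM in soleus. The tissues did not overlap. Brown fat was higher than soleus by a log2 fold change of 1.4 (SE 0.088; limma, Benjamini-Hochberg-adjusted p = 7.79e-08) and white fat was higher than soleus by 1.10 (SE 0.088; limma, Benjamini-Hochberg-adjusted p = 4.38e-07). The brown fat against white fat difference was small, 0.30 (SE 0.088; limma, Benjamini-Hochberg-adjusted p = 0.0107), a ratio of mean FPKM of 1.24. It was no longer called without white fat replicate 3 (log2 fold change 0.24, limma, Benjamini-Hochberg-adjusted p = 0.0503), and after TPM rescaling, which brings the FPKM of every library to a sum of 1000000, it had the opposite sign (-0.28, limma, Benjamini-Hochberg-adjusted p = 0.0146).

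Acot9 cannot be read wholly apart from Acot10, a near-identical copy on chromosome 15 that is no member of the list. The annotated transcripts (GENCODE M21, GRCm38) were identical at 1445 of 1488 aligned bases, 97.11%, with identical runs of up to 109 bases, and 20.2% of the 50-base stretches of the Acot9 transcripts occur in Acot10. A 90-base window of the Acot9 coding sequence that starts 58 bases into it, chosen because it holds a cluster of 6 differences, shows what separates them. Both are written 5′ to 3′ with the differing bases in capitals.

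Acot9 (chromosome X): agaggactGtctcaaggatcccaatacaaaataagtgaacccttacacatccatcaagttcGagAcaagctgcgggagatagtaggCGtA
Acot10 (chromosome 15): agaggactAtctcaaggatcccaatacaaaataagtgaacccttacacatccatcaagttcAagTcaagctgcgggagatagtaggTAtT

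Acot10 was listed at 12.5, 12.8 and 12.4 FPKM in brown fat, 8.08, 9.27 and 8.36 FPKM in white fat, and 4.86, 5.89 and 4.72 FPKM in soleus. Its order over tissues was that of Acot9, and its ratio to Acot9, chosen after the values were seen, was 0.479 to 0.501 in brown fat, 0.377 to 0.439 in white fat and 0.530 to 0.594 in soleus. How the authors' counting divided shared reads between the pair is not given in the sources used here, so the share that belongs to each is uncertain. With both rows summed, a setting also chosen after the data were seen, the log2 fold change was 0.37 for brown fat against white fat (limma, Benjamini-Hochberg-adjusted p = 0.00262), 1.36 for brown fat against soleus (limma, Benjamini-Hochberg-adjusted p = 8.73e-08) and 0.99 for white fat against soleus (limma, Benjamini-Hochberg-adjusted p = 9.84e-07).

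Acot7, a cytosolic enzyme for long-chain acyl-CoA that is best known from brain, was the tested member with the highest mean in soleus other than Acot13. It had 14.9, 12.6 and 11.1 FPKM in brown fat, 14.1, 9.97 and 10.8 FPKM in white fat, and 18.5, 21.2 and 19.4 FPKM in soleus. Every soleus library was above every fat library, and the 2 fats overlapped. Brown fat was lower than soleus by a log2 fold change of -0.59 (SE 0.13; limma, Benjamini-Hochberg-adjusted p = 0.00178), and white fat was lower than soleus by -0.72 (SE 0.13; limma, Benjamini-Hochberg-adjusted p = 0.000359). After TPM rescaling the white fat against soleus difference was -0.21 and no longer called (limma, Benjamini-Hochberg-adjusted p = 0.103). Brown fat against white fat gave 0.14 (SE 0.13; limma, Benjamini-Hochberg-adjusted p = 0.37), and with the same rescaling -0.43 (limma, Benjamini-Hochberg-adjusted p = 0.00525).

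Markers of nerve and Schwann cells were also higher in soleus, but did not follow Acot7 in every library. Summed over the 11 of 12 such genes with a row, they came to 13.1, 11.9 and 15.2 FPKM in brown fat replicates 1, 2 and 3, 9.20 to 10.7 FPKM in white fat, and 20.5, 60.3 and 29.9 FPKM in soleus replicates 1, 2 and 3. Soleus replicate 2 was the highest both in that sum and in Acot7, whereas brown fat replicate 3 had the highest sum and the lowest Acot7 of its tissue. Single markers differed in their order over tissues. Uchl1, a ubiquitin hydrolase abundant in neurons, had 0.210 to 0.363 FPKM in brown fat, 3.12 to 3.74 FPKM in white fat, and 11.7, 16.0 and 12.4 FPKM in soleus. Prph, an intermediate filament protein of peripheral neurons, had at most 0.0359 FPKM in any fat library and 0.470 to 0.625 FPKM in soleus. The neurofilament gene Nefl had at most 0.0138 FPKM in brown fat, 0.0356 to 0.173 FPKM in white fat and at most 0.0304 FPKM in soleus, and Tubb3 and Nefm were likewise highest in white fat. The part of nerve in the Acot7 difference was not tested.

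Acot8, the peroxisomal enzyme of broad chain-length range, was highest in brown fat by a modest margin. It had 10.9, 9.44 and 8.95 FPKM in brown fat, 6.54, 5.55 and 5.31 FPKM in white fat, and 4.78, 5.22 and 4.92 FPKM in soleus. No tissues overlapped, although white fat and soleus came close. Brown fat was higher than white fat by a log2 fold change of 0.66 (SE 0.092; limma, Benjamini-Hochberg-adjusted p = 6.72e-05) and higher than soleus by 0.85 (SE 0.092; limma, Benjamini-Hochberg-adjusted p = 7.22e-06). After TPM rescaling, the brown fat against white fat difference was 0.16 and not called (limma, Benjamini-Hochberg-adjusted p = 0.144). White fat against soleus gave 0.18 (SE 0.092; limma, Benjamini-Hochberg-adjusted p = 0.0835), and its sign depended on the scaling, with -0.18 after median-of-ratios scaling (limma, Benjamini-Hochberg-adjusted p = 0.0674) and 0.74 after TPM rescaling (limma, Benjamini-Hochberg-adjusted p = 1.84e-05).

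Acot8 has an antisense partner too. Its exons overlap those of Snx21, a sorting nexin on the other strand of chromosome 2, over 17.68% of the 50-base stretches of the Acot8 transcripts. Snx21 was at 16.9 ± 2.07 FPKM in brown fat, 8.28 ± 0.915 FPKM in white fat and 9.91 ± 0.532 FPKM in soleus (SD, n = 3 each). It stood above Acot8 in all 3 tissue means and was also highest in brown fat. Without strand, reads of the shared stretch cannot be told apart.

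Acot12, the cytosolic acetyl-CoA hydrolase known from liver, and Acot3, a peroxisomal type I enzyme of a gene cluster on chromosome 12, were near 0 throughout. Acot12 had 0.0896, 0.0583 and 0.0717 FPKM in brown fat, 0, 0 and 0.00435 FPKM in white fat, and 0.0246, 0 and 0.00998 FPKM in soleus. Acot3 had 0.0734, 0.0695 and 0.0488 FPKM in brown fat, 0.0368, 0 and 0.00951 FPKM in white fat, and was listed at 0 in all soleus libraries. Brown fat was the highest tissue for both, with no overlap, at levels far below the 1 FPKM filter. An exact 0 may be a failed estimate, and Acot3 shares 21.7% of its 50-base stretches with other genes, so its values are uncertain. Acot5, a cluster relative outside the list, was at most 0.0629 FPKM in any library.

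Scaling moved the all-gene median, and the members are also given relative to it. Genes did not all move alike on the log2(FPKM + 1) scale. In brown fat against white fat, TPM rescaling lowered the median, but the Acot11 log2 fold change went from 5.93 to 6.545. With TPM rescaling the all-gene median became -0.50 for brown fat against white fat, 0.32 for brown fat against soleus and 0.93 for white fat against soleus. The target sum is larger than any library's own sum, so this setting also makes the added constant of 1 smaller relative to the values. With every library brought to the geometric mean of the sums instead, a setting chosen after the data were seen, the medians were -0.43, 0.26 and 0.78. Relative to the all-gene median, Acot9 in brown fat against white fat was 0.27 as deposited, 0.22 after TPM rescaling and 0.16 with sums equal at the geometric mean. On the same footing Acot8 was 0.63, 0.65 and 0.57, and Acot7 was 0.11, 0.06 and 0.02. For white fat against soleus, Acot8 lay below the median on all 3 scales, at -0.16, -0.19 and -0.12. In brown fat against white fat Acot11 was 5.90 above the median as deposited, 7.04 after TPM rescaling and 6.03 with sums equal at the geometric mean, and Acot13 was 2.79, 2.76 and 2.67.

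**Figure D4:**
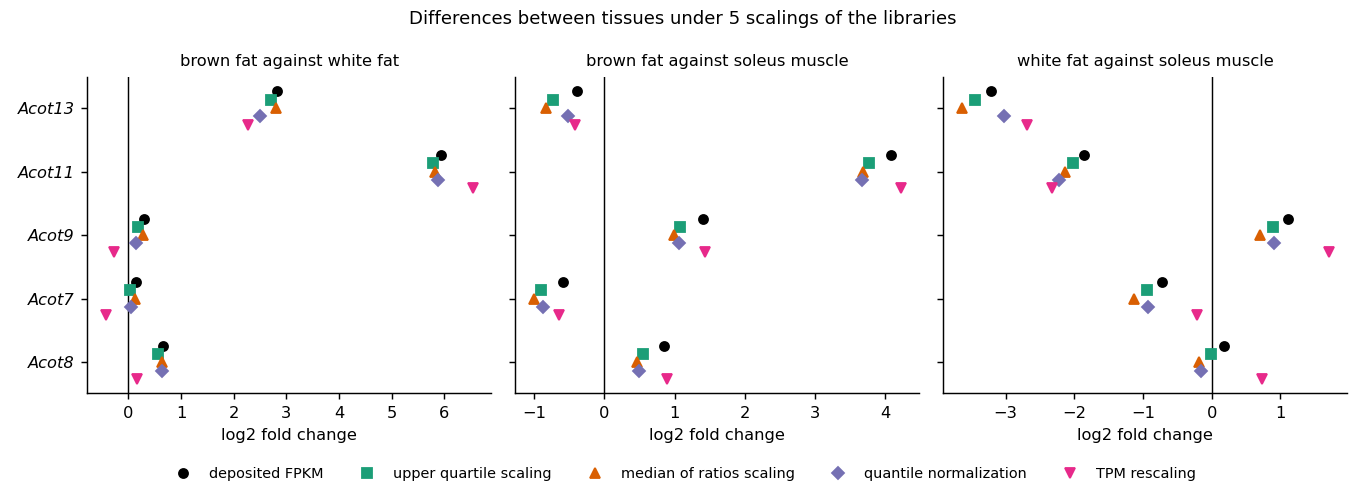
Log2 fold change of the 5 tested members for each pair of tissues under the deposited scale and 4 other scalings. Acot11 and Acot13 kept their direction in every panel, whereas Acot7 and Acot9 in brown fat against white fat, and Acot8 in white fat against soleus, crossed 0 with the scaling.

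Other genes of acyl-CoA metabolism show the setting in which the family was measured. The lists below were drawn up by function, and each is given by its counts and its median log2 fold change, with no test of the list. All their counts stand beside those of all tested genes. In brown fat against white fat 38% of all tested genes were called higher and 34.8% lower (median 0.03). In brown fat against soleus the shares were 52.9% and 25.6% (median 0.29). In white fat against soleus they were 54.5% and 29.7% (median 0.35). The first list holds other thioesterases together with enzymes that act on acyl-CoA in another way: the Nudix hydrolases Nudt7 and Nudt19, which cut coenzyme A at its diphosphate, and Mcat, a mitochondrial malonyltransferase. Of its 20 genes 9 were tested, and 8 were higher in brown fat than in white fat and 1 lower, with a median of 1.07 against 0.03 for all genes. The largest rises belonged to Nudt7 and Mcat, which are not thioesterases. Nudt7, which is peroxisomal, averaged 147 ± 7.57 FPKM in brown fat and 35.8 ± 3.71 FPKM in white fat (log2 fold change 2.01, SE 0.10; limma, Benjamini-Hochberg-adjusted p = 3.11e-08). Ppt1, which removes palmitate from lysosomal proteins, was the gene that fell, with 15.2 ± 0.0673 FPKM in brown fat against 24.1 ± 1.36 FPKM in white fat (log2 fold change -0.63, SE 0.066; limma, Benjamini-Hochberg-adjusted p = 7.5e-06). Against soleus, 8 of the 9 were higher in brown fat and the other was not called (median 0.90), and between white fat and soleus 3 were higher in white fat and 4 lower (median -0.12).

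The enzymes that make acyl-CoA were mostly higher in brown fat. Of 12 tested synthetases and transport proteins, 8 were higher and 1 lower than in white fat (median 2.05), and 11 were higher and 1 lower than in soleus (median 2.32). Acsl1, a long-chain synthetase, averaged 626 ± 54.4 FPKM in brown fat and 180 ± 2.38 FPKM in white fat (log2 fold change 1.79, SE 0.10; limma, Benjamini-Hochberg-adjusted p = 6.3e-08). Slc27a2, a very-long-chain synthetase, was at 63.9 ± 10.2 FPKM in brown fat, 0.570 ± 0.521 FPKM in white fat and 0.0237 ± 0.0304 FPKM in soleus. Acsl6 ran the other way against muscle, with 0.0190 ± 0.0246 FPKM in brown fat against 24.5 ± 2.60 FPKM in soleus (log2 fold change -4.64, SE 0.079; limma, Benjamini-Hochberg-adjusted p = 3.86e-12).

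Among 7 acyl-CoA binding proteins, which shield and carry acyl-CoA, 4 were higher and 1 lower in brown fat than in white fat (median 0.29), and 5 were higher and 2 lower than in soleus (median 1.88). Dbi, the main cytosolic binding protein, averaged 3621 ± 151 FPKM in brown fat, 2551 ± 221 FPKM in white fat and 375 ± 52.6 FPKM in soleus. Its brown fat against white fat difference (log2 fold change 0.51, SE 0.13; limma, Benjamini-Hochberg-adjusted p = 0.0059) changed sign with the scaling. One of the 2 that fell against soleus, Acbd6, was just past the threshold (log2 fold change -0.37, SE 0.15; limma, Benjamini-Hochberg-adjusted p = 0.0429). It was not called with a replicate block (adjusted p = 0.0702), with no filter (0.0775), without any 1 of the brown fat replicates (0.0641 to 0.0965), without white fat replicate 3 (0.0523) or without soleus replicate 2 (0.18).

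Oxidation genes in both organelles were higher in brown fat. Of 15 mitochondrial import and oxidation genes tested, 14 were higher and 1 lower than in white fat (median 2.69), and 14 were higher than in soleus, with the other not called (median 2.17). The one that fell was Cpt1a, the liver form of the carnitine palmitoyltransferase that starts mitochondrial import, with 2.01 ± 0.199 FPKM in brown fat against 15.4 ± 0.134 FPKM in white fat (log2 fold change -2.45, SE 0.093; limma, Benjamini-Hochberg-adjusted p = 3.49e-09). Its relative Cpt1b had no row, so the level of the import step as a whole is not known here. Acadvl, Etfb and Eci2 of this list had no row either. Between white fat and soleus, 1 of the 15 was higher in white fat, Cpt1a again, and 12 lower (median -0.88). Of the members, Acot7, Acot11 and Acot13 were also lower in white fat there. Acot9, itself mitochondrial, was higher (log2 fold change 1.10), and Acot8 was not called.

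Of 19 peroxisomal genes tested, 17 were higher and 1 lower in brown fat than in white fat (median 1.06), and all 19 were higher than in soleus (median 1.58), beside an Acot8 difference of 0.66 and 0.85. Phyh, which starts alpha-oxidation of phytanoyl-CoA, averaged 564 ± 14.9 FPKM in brown fat, 109 ± 9.48 FPKM in white fat and 215 ± 18.9 FPKM in soleus. The gene that fell against white fat was Abcd2, a peroxisomal importer of very-long-chain acyl-CoA, with 20.5 ± 6.08 FPKM in brown fat against 118 ± 9.46 FPKM in white fat (log2 fold change -2.51, SE 0.18; limma, Benjamini-Hochberg-adjusted p = 3.5e-07).

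PPAR nuclear receptors, which several thioesterase genes are known to answer to in mouse liver, formed the last list with their textbook targets. Of 15 tested, 12 were higher and 2 lower in brown fat than in white fat (median 2.13), and 13 were higher and 1 lower than in soleus (median 1.96). Pdk4, which restrains pyruvate oxidation, averaged 853 ± 67.2 FPKM in brown fat, 21.2 ± 7.98 FPKM in white fat and 365 ± 54.0 FPKM in soleus. Between white fat and soleus, 7 were higher in white fat and 7 lower (median -0.15).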

How the data were processed

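Brown fat, white fat and soleus of wild-type mice were measured by RNA sequencing, 3 libraries each. Per the labels' protocols, RNA extracted with TRIzol was prepared with the Illumina TruSeq RNA version 2 kit. Per the submitters' processing notes, TopHat 1.4.1, Cufflinks 2.0.1 and the mouse build mm9 were used. The authors deposited 1 matrix of FPKM values for 18401 rows named by RefSeq accessions. FPKM is relative to the mapped total, so abundant transcripts depress the values of the remaining genes.

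A RefSeq gene table named 18305 rows and GENCODE 38 more; 55 rows without a symbol and 3 with several were omitted. Rows of 1 gene were summed. These tables are on GRCm38 and gave names, overlaps and promoter sequence only. One limma 3.58.1 model (R 4.3.3) covered all 9 libraries, using log2(FPKM + 1), a mean-variance trend, 6 residual degrees of freedom, two-sided tests and Benjamini-Hochberg adjustment over the 9913 genes that reached 1 FPKM in 3 or more libraries. The fit was tested on simulated data. All members were described; from each other list the genes named were drawn from the 2 largest called changes per direction and the highest mean, leaving out genes listed at 0 in a whole tissue; Acot5, Acot10 and the genes nearest by correlation were added, and genes outside this rule (Fam151a, Snx21, single markers) were chosen after their values were seen. Members and lists were chosen with earlier results of these data known. Alternatives changed the pseudocount, filter, scaling, replicate block and libraries left out. A few genes that the rule would name are not reported here.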

Additional observations from a re-analysis of the deposited data

How the results depend on the processing

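Of 333 recomputed values for the 15 member results, 317 kept their direction and side of the threshold, 7 lost the call, 2 gained it and 7 changed sign. Some alternatives left a member's fold change fixed and could shift only its p-value. Examples are taking the row of highest mean, since each member had 1 row, and leaving out a library of the tissue not compared. The count of 317 includes these, so it overstates how far the results were put to the test. TPM rescaling left 2 members higher and 2 lower in brown fat than in white fat, and put 2 higher in white fat than in soleus. With it, brown fat against white fat gave -0.43 for Acot7, -0.28 for Acot9, -0.036 for Acot10 and -0.082 for Dbi; quantile normalization gave -0.24 for Dbi. With sums equal at their geometric mean, chosen after the data were seen, the members' counts were likewise 2, 2 and 2, with -0.41 for Acot7, -0.27 for Acot9, -0.034 for Acot10 and -0.082 for Dbi, and all genes gave 1776 higher and 6154 lower (22.4%) in brown fat against white fat and 78.7% higher, with 1874 lower, in white fat against soleus. For Acot8 in white fat against soleus, upper quartile scaling gave -0.011, median-of-ratios scaling -0.18 and quantile normalization -0.15. Acot9 in brown fat against white fat was not called with upper quartile scaling (0.19) or quantile normalization (0.14), its limma adjusted p running from 0.00262 to 0.162 over all alternatives. The cause was not tested. Among the other lists, the first holds Nudt7, Nudt19 and Mcat beside thioesterases. TPM rescaling left 5 of its genes higher in brown fat than in white fat (limma). It left 0 binding proteins and 10 peroxisomal genes higher there. In white fat against soleus it left 6 genes of the first list and 5 mitochondrial genes higher. In that comparison 1 gene of the first list and 3 peroxisomal genes were lower. Counts of lower genes of 1 or 2 moved to between 0 and 4 over the alternatives.

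Over all genes, brown fat against white fat had 3769 higher and 3446 lower (52.2% of called genes higher), against 1795 and 6133 (22.6%) with that rescaling, and 2062 lower at a filter of 5 FPKM. Brown fat against soleus had 5246 higher and 2535 lower (67.4%), against 3627 and 4004 (47.5%) with median of ratios, 52.3% with upper quartile and 54.3% with quantile normalization. White fat against soleus had 5403 higher and 2948 lower (64.7%), against 6931 and 1869 (78.8%) with the rescaling, 50.1% with median of ratios, 52.4% with quantile normalization, and 3511 higher at the filter of 5 FPKM. A replicate block took the Acbd6 call against soleus (adjusted p = 0.0702), left the members' counts at 4 and 0, 3 and 2, and 1 and 3, higher and lower, and changed no member's call; same-numbered libraries did not deviate together (r = -0.2197 to 0.07738, 9 pairs), so the numbers were not taken as a pairing. Read totals are unknown, so no interval or floor is given for values near 0.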
